A study of Mus musculus with 4 samples.

Results

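The genes described here are 38 mouse genes of glycolysis and of the hypoxia-inducible factor (HIF) pathway, measured by RNA-seq in tumour-associated macrophages (TAMs). They were taken by name from the count tables after gene identifiers had been matched to mouse symbols, and make up 38 of 39179 gene identifiers. By role they are 4 transporters of glucose and lactate, 12 genes of upper glycolysis, 7 genes of lower glycolysis, 6 genes of HIF subunits and oxygen sensing, and 9 HIF target genes outside glycolysis. All 38 are annotated as protein-coding, and all 38 passed the filter on low counts that left 14075 genes for testing.

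MycCaP is a mouse prostate cancer cell line driven by a MYC transgene, and MycCaP-BMP4 is the same line overexpressing BMP4, a secreted bone morphogenetic protein. Each was grown as a tumour under the skin of FVB mice, tumours were dissociated, and macrophages were sorted, per the shared cell type label, as cells carrying CD45, CD11b and F4/80 and lacking GR1. The 2 groups were TAMs of MycCaP-BMP4 tumours and TAMs of MycCaP tumours, with 2 libraries each, from unmodified FVB hosts whose age and sex are not given in the labels. F4/80 stands in the sample titles of the MycCaP-BMP4 group alone, so the gate may have differed between groups, and gate and tumour line then cannot be told apart. The labels do not say whether the libraries of a group came from separate mice, whether animals were pooled, or whether the MycCaP-BMP4 line is 1 clone. The p-values therefore measure the spread between these libraries, which may be technical.

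Glycolysis breaks glucose down to pyruvate in the cytosol, yielding ATP without oxygen, and lactate dehydrogenase turns pyruvate into lactate, which monocarboxylate transporters carry across the plasma membrane. HIF is a dimer of an alpha subunit, HIF1A or EPAS1, with ARNT. With oxygen present, EGLN prolyl hydroxylases mark the alpha subunit, VHL binds it and it is degraded. When oxygen is scarce the alpha subunit persists and the dimer binds a short DNA core (A or G followed by CGTG), raising transcription of most glycolytic genes, and in macrophages inflammatory stimuli can do the same.

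Gene counts totalled 24313328 in replicate 1 and 23058263 in replicate 2 of MycCaP-BMP4, and 24967143 in replicate 1 and 24385036 in replicate 2 of MycCaP. Paired values that follow give replicate 1 before replicate 2. Levels are CPM, counts divided by the library's total and scaled with TMM factors, which assume that most genes do not differ. On this scale a floor of 3 counts in a library is 0.1202 to 0.1301 CPM before TMM scaling, covering counting error only. Bmp4 had 512 and 182 CPM in MycCaP-BMP4 TAMs, against 0.175 and 0.0422 CPM (4 counts and 1 count) in MycCaP TAMs. The macrophage label was checked with 15 pan-macrophage markers, whose summed level was 5935 and 21667 CPM in MycCaP-BMP4 TAMs and 28993 and 25275 CPM in MycCaP TAMs. Relative to the MycCaP mean, the median marker stood at 19.7% in MycCaP-BMP4 replicate 1 and 73.9% in replicate 2, so the 2 libraries of that group differ and replicate 1 stands apart. The 7 T and NK cell markers summed to 2.72 and 5.76 CPM in MycCaP-BMP4 TAMs and 39.9 and 24.9 CPM in MycCaP TAMs.

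Of the 38 genes, 23 had lower CPM in both MycCaP-BMP4 libraries than in either MycCaP library (background over all genes tested 29.7%), 2 had higher CPM in both (Slc16a1 and Epas1, background 28.9%), and the groups overlapped for 13. None passed edgeR's quasi-likelihood test at a Benjamini-Hochberg adjusted p under 0.05, nor did any other gene (background 0%). At an unadjusted p under 0.05 the same test took 8 genes as lower (background 6.76%) and 1 as higher (background 12.3%). The gap between groups was wider than the range of either replicate pair for 11 lower genes (Slc2a1, Slc2a3, Pfkl, Aldoa, Tpi1, Ldhb, Egln1, Ankrd37, Bnip3, P4ha1 and Ddit4, background 7.47%) and for the 2 higher ones (background 10.4%). The fitted log2 fold change, MycCaP-BMP4 over MycCaP, was negative for 32 of the 38 and positive for 6. Its median was -0.37 over the 38 genes, beside -0.03 over all genes tested. Summed over the 38 genes, the level was 11690 and 10447 CPM in MycCaP-BMP4 TAMs, against 14209 and 13528 CPM in MycCaP TAMs.

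The lower position of these genes depended on what the libraries were scaled to. With libraries scaled on the pan-macrophage markers in place of all genes, the log2 fold change had a median of 1.65 over all genes tested and of 1.25 over the 38 genes. On that scale both MycCaP-BMP4 libraries lay higher for 15 of the 38 (background 69.8%), lower for 4 (Slc16a3, Egln3, Ndrg1 and Adm, background 3.87%) and 19 overlapped. Sides given below by role on that scale are read beside the same shares, and differences between roles were not tested. On either scale the median of the 38 genes lay below the median of all genes. Rescaling the libraries moves all genes nearly alike, so this order carries over and the macrophage scale gives no separate evidence of it. In bulk RNA, fewer macrophages among the sorted cells and less macrophage RNA per cell cannot be told apart. DESeq2's test on the same counts called 5 of the 38 genes at an adjusted p under 0.05, with Slc16a1 higher (background 6.83%) and Slc2a1, Egln3, Adm and Ddit4 lower (background 3.01%). Without MycCaP-BMP4 replicate 1, edgeR called 7 of the 38 (background 7.12%), with 31 lower (background 39.5%) and 3 higher (background 38.7%) than both MycCaP libraries. Without MycCaP-BMP4 replicate 2 it called 17 of the 38 (background 38.7%), with 26 lower (background 43.8%) and 6 higher (background 43.4%). The remaining library of the group was then assumed to vary like the MycCaP pair.

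**Figure D1:**
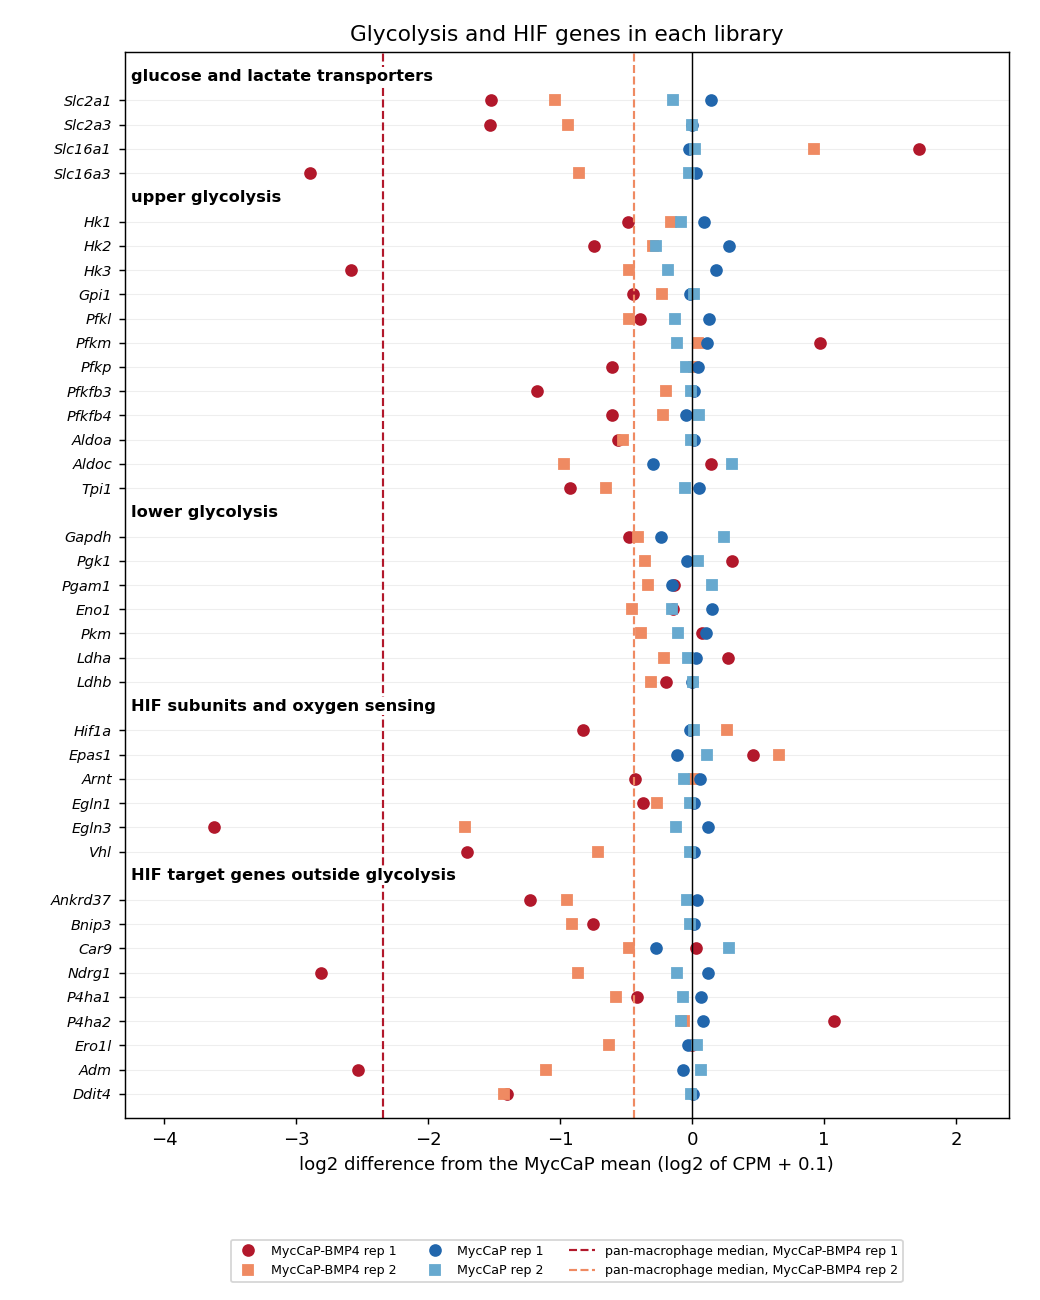
Log2 difference in CPM from the MycCaP mean for each of the 38 genes, by role, with 1 point per library (pseudocount 0.1 CPM). The MycCaP points lie close to 0, and most MycCaP-BMP4 points lie to the left of it on this all-gene scaling, with Slc16a1 and Epas1 to the right in both libraries; with scaling on the pan-macrophage markers the median gene lies to the right.

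Promoters are shown for 7 genes: the lactate transporter that was higher and the one that was lower, the main glucose transporter, 3 HIF targets that were lower, and Ldha, a classical HIF target whose groups overlapped. They are RefSeq promoter windows of GRCm38.p6, 250 bases before to 50 after a transcript's start, written 5′ to 3′ on the gene's strand. Capitals mark every match to the HIF core, ACGTG or GCGTG, on either strand, so CACGT and CACGC are the same letters read from the other strand. A palindromic CACGTG holds 2 overlapping matches and is counted as such.
Slc16a1, chr3:104638414-104638713 (plus strand): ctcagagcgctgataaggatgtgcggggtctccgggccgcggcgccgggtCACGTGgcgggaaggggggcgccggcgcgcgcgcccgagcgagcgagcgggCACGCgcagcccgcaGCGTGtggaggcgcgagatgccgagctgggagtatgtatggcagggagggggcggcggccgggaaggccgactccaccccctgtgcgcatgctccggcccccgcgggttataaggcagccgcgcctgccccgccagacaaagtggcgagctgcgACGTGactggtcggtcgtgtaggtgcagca
Slc16a3, chr11:120948817-120949116 (plus strand): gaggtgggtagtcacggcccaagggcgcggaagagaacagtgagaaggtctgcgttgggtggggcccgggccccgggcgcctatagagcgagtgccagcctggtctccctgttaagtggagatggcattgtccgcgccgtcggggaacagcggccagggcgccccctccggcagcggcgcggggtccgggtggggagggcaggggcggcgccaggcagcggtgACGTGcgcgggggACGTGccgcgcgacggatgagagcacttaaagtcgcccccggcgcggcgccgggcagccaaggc
Slc2a1, chr4:119108495-119108794 (plus strand): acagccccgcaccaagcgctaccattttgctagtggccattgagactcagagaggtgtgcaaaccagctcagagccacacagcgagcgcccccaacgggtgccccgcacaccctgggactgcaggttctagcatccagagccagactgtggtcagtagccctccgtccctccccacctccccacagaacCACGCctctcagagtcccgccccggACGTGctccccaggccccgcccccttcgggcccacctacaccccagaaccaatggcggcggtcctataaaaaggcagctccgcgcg
Egln3, chr12:54203825-54204124 (minus strand): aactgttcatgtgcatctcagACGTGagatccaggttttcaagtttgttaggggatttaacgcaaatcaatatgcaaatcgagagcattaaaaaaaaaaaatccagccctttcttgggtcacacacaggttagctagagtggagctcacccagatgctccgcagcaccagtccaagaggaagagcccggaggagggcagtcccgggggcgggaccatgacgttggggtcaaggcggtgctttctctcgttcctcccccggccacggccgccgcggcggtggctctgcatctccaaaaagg
Ddit4, chr10:59951721-59952020 (minus strand): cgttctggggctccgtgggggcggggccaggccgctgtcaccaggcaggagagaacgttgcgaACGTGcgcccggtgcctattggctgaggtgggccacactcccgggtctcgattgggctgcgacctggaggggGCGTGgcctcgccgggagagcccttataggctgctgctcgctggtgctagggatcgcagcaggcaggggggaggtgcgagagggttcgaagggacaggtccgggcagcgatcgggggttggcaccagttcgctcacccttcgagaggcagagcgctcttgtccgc
Bnip3, chr7:138909457-138909756 (minus strand): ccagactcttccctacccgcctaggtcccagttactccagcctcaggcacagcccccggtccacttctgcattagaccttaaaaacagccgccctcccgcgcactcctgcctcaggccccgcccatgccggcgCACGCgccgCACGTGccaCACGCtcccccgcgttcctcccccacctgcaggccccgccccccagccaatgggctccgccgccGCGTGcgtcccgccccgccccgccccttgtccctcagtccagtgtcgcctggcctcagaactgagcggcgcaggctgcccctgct
Ldha, chr7:46845554-46845853 (plus strand): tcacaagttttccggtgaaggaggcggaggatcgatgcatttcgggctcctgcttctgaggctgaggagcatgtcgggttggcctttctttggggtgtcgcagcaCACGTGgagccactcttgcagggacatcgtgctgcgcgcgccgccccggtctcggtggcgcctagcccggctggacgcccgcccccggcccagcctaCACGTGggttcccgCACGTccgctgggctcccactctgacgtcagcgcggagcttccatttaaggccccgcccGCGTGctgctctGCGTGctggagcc

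The core was present in at least 1 window of 32 of the 35 genes that had a window, or 91.4%, against 46.7% of all genes and 66.4% of genes with at least 40 counts over the 4 libraries. Counted by window, 85.1% of the members' windows held it, against 43.8% of all 32851 windows. Gpi1, Tpi1 and Vhl had none in any window, and Slc2a3, Epas1 and Ndrg1 had no entry. Among genes lower in both MycCaP-BMP4 libraries 18 of 21 held the core, or 85.7%, and among the other members 14 of 14. Among the 7 shown, Slc16a1, which was higher, and Bnip3, which was lower, both held 5, Ldha held 7, Slc16a3, Slc2a1 and Ddit4 held 2 each and Egln3 held 1. A match of these letters describes the sequence and says nothing about binding.

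Glucose and lactate transporters were the role group with the lowest median log2 fold change, -1.25. In both MycCaP-BMP4 libraries 3 genes were lower (background 29.7%) and 1 was higher (background 28.9%). With scaling on the pan-macrophage markers only Slc16a3 remained lower in both and Slc2a1 and Slc2a3 overlapped. Slc2a1 encodes GLUT1, the widely expressed glucose transporter, and lies at chr4:119108711-119137983 on the plus strand (GRCm38). It had 87.2 and 122 CPM in MycCaP-BMP4 TAMs, against 277 and 226 CPM in MycCaP TAMs, or 105 ± 24.6 and 252 ± 36.1 CPM (SD, n = 2 each). Both MycCaP-BMP4 libraries were lower and the gap exceeded the spread within either pair. The log2 fold change was -1.27 ± 0.32 (SE), with an edgeR adjusted p of 0.153 and a DESeq2 adjusted p of 0.0137. Slc2a3, the high-affinity transporter GLUT3, had 4.09 and 6.19 CPM in MycCaP-BMP4 TAMs and 12.0 and 12.0 CPM in MycCaP TAMs. Again neither MycCaP-BMP4 library reached the MycCaP level, and the log2 fold change was -1.22 ± 0.39 (edgeR adjusted p 0.201).

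The lactate transporters lay in opposite directions. Slc16a1 encodes MCT1, a monocarboxylate carrier of high lactate affinity that can import or export lactate, and lies at chr3:104638668-104658462 on the plus strand. It had 156 and 90.1 CPM in MycCaP-BMP4 TAMs, against 46.6 and 48.2 CPM in MycCaP TAMs, or 123 ± 46.7 and 47.4 ± 1.12 CPM (SD, n = 2 each). Both MycCaP-BMP4 libraries were higher, replicate 1 more so, and the log2 fold change was 1.38 ± 0.34 (edgeR adjusted p 0.152, DESeq2 adjusted p 0.0146). Slc16a3 encodes MCT4, the low-affinity exporter of highly glycolytic cells and a HIF target, at chr11:120948480-120960868 on the plus strand. Its level was 32.6 and 134 CPM in MycCaP-BMP4 TAMs and 248 and 239 CPM in MycCaP TAMs. Both MycCaP-BMP4 libraries were lower, but on the log2 scale they lay further apart from each other than replicate 2 did from MycCaP, and the log2 fold change was -1.55 ± 0.65 (edgeR adjusted p 0.278).

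Within a library the ratio of these genes does not depend on the scaling. Slc16a1 had 4.80 and 0.670 counts per Slc16a3 count in MycCaP-BMP4 TAMs, against 0.188 and 0.202 in MycCaP TAMs. Per kb of transcript, Slc16a1 made up 82.5% and 39.6% of the MCT1 and MCT4 transcripts together in MycCaP-BMP4 TAMs and 15.6% and 16.5% in MycCaP TAMs. The order of the 2 transporters was thus turned round in MycCaP-BMP4 replicate 1 and not in replicate 2. With scaling on the pan-macrophage markers, Slc16a1 was the only one of the 38 genes called, at a log2 fold change of 3.28 (edgeR adjusted p 0.0455). That scaling called 1139 of the 14075 genes tested, 1116 of them higher, and moved the all-gene median log2 fold change to 1.65. Markers of tumour epithelium moved as well. Of 13 listed genes 6 passed the filter, of which 4 were higher in both MycCaP-BMP4 libraries, Krt8 overlapped and Cdh1 was lower, at 0.326 and 1.93 CPM in MycCaP-BMP4 TAMs and 5.16 and 4.05 CPM in MycCaP TAMs. The summed level of the list was 451 and 172 CPM in MycCaP-BMP4 TAMs, against 56.4 and 59.6 CPM in MycCaP TAMs. Most of that sum was Cldn3, with 359 and 126 CPM against 25.8 and 27.6 CPM, while Epcam and Krt18 were under 1 CPM in every library and Spdef had no count. Of 7 cartilage and bone markers 5 passed the filter and were higher in both libraries. Col2a1, Acan and Ibsp had no count in MycCaP TAMs and Alpl had 1 and 9, so these passed through MycCaP-BMP4 alone. Their side was thus largely fixed by the filter. The list summed to 134 and 74.9 CPM in MycCaP-BMP4 TAMs, against 11.2 and 19.7 CPM in MycCaP TAMs. Most of this was Sox9, with 128 and 65.5 CPM against 11.2 and 19.3 CPM. Slc16a1, like these sums, was higher in replicate 1 than in replicate 2 of MycCaP-BMP4. The part of such cells in the transporter values was not tested.

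**Figure D2:**
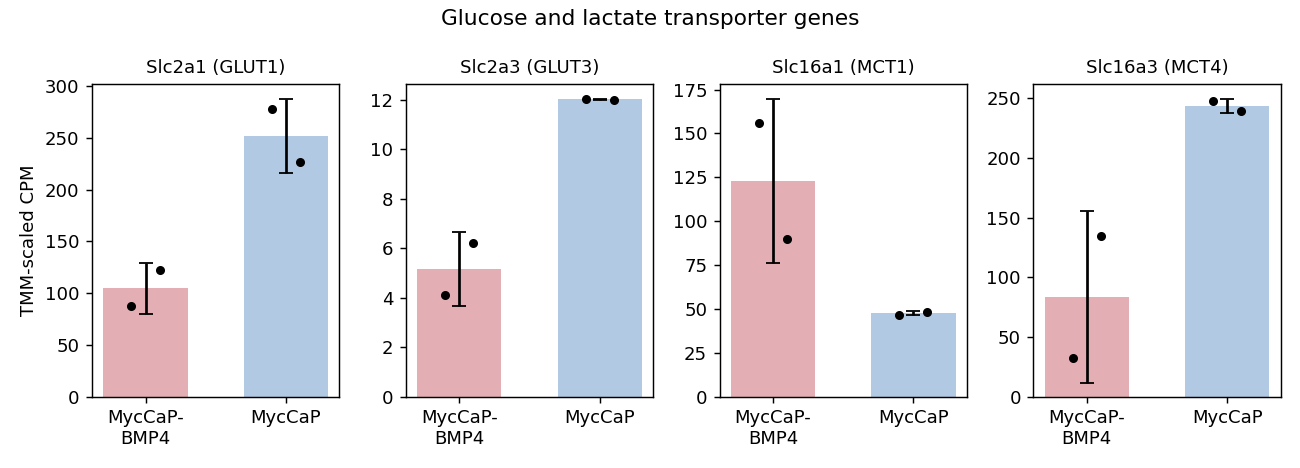
TMM-scaled CPM of the 4 transporter genes, with 1 dot per library, bars for the mean of 2 libraries and error bars for the SD; each panel has its own axis from 0. Slc2a1, Slc2a3 and Slc16a3 were lower in both MycCaP-BMP4 libraries on this scaling and Slc16a1 was higher in both; on the pan-macrophage scaling Slc2a1 and Slc2a3 overlapped.

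In upper glycolysis, the steps from glucose to triose phosphate, 9 of 12 genes were lower in both MycCaP-BMP4 libraries (background 29.7%) and 3 overlapped. The median log2 fold change was -0.42. With scaling on the pan-macrophage markers the fold change of each gene other than Hk3 was positive. Tpi1, triose-phosphate isomerase, had 497 and 599 CPM in MycCaP-BMP4 TAMs, against 980 and 907 CPM in MycCaP TAMs. Its log2 fold change was -0.78 ± 0.36 (edgeR adjusted p 0.311), and the groups were separated by more than the spread within either pair. Aldoa, the main aldolase, had close replicates, at 1068 and 1093 CPM in MycCaP-BMP4 TAMs and 1587 and 1562 CPM in MycCaP TAMs. The log2 fold change of Aldoa was -0.54 ± 0.40 (edgeR adjusted p 0.488), a difference that all 4 libraries showed but the model could not tell from the spread it estimated across genes.

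Hexokinases trap glucose in the cell by phosphorylating it. Hk1, the housekeeping form, had 88.8 and 111 CPM in MycCaP-BMP4 TAMs and 132 and 117 CPM in MycCaP TAMs. Hk2, the form raised by HIF, had 95.8 and 131 CPM in MycCaP-BMP4 TAMs and 195 and 133 CPM in MycCaP TAMs, so the groups nearly touched. Hk3, the form of myeloid cells, had 32.5 and 140.1 CPM in MycCaP-BMP4 TAMs and 221 and 172 CPM in MycCaP TAMs. All 3 were lower in both MycCaP-BMP4 libraries, and Hk3 was by far the lowest in replicate 1, the library with the lowest macrophage markers. The log2 fold changes were -0.31 ± 0.27 for Hk1, -0.53 ± 0.33 for Hk2 and -1.19 ± 0.67 for Hk3, with edgeR adjusted p of 0.55, 0.424 and 0.381. Per kb of transcript, Hk3 made up 20.0% and 45.3% of the 3 hexokinases in MycCaP-BMP4 TAMs, against 49.7% and 49.6% in MycCaP TAMs, and Hk1 made up 45.6% and 30.04%, against 24.7% and 28.1%.

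Phosphofructokinase commits sugar to glycolysis. Pfkl, the liver-type subunit, had 194 and 183 CPM in MycCaP-BMP4 TAMs and 278 and 233 CPM in MycCaP TAMs, lower in both. Pfkm, the muscle-type subunit, had 50.5 and 26.6 CPM in MycCaP-BMP4 TAMs and 27.9 and 23.7 CPM in MycCaP TAMs, which overlapped through replicate 2. Pfkp, the platelet-type subunit, had 90.3 and 139 CPM in MycCaP-BMP4 TAMs and 142 and 133.5 CPM in MycCaP TAMs, also overlapping. Of the 3 subunits, Pfkl made up 57.0% and 53.4% per kb of transcript in MycCaP-BMP4 TAMs, against 62.9% and 60.7% in MycCaP TAMs, and Pfkm 19.2% and 10.04%, against 8.2% and 8.0%.

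The bifunctional enzymes Pfkfb3 and Pfkfb4 make fructose 2,6-bisphosphate, the strongest activator of phosphofructokinase. Pfkfb3 had 69.6 and 137 CPM in MycCaP-BMP4 TAMs and 158 and 156 CPM in MycCaP TAMs, and Pfkfb4 25.7 and 33.8 CPM against 38.02 and 40.7 CPM. Gpi1, glucose-6-phosphate isomerase, had 493 and 576 CPM in MycCaP-BMP4 TAMs and 666 and 682 CPM in MycCaP TAMs. These 3 were lower in both MycCaP-BMP4 libraries, with replicate 1 the lower one each time. Aldoc, the brain-type aldolase, had 23.4 and 10.7 CPM in MycCaP-BMP4 TAMs and 17.1 and 26.0 CPM in MycCaP TAMs, which overlapped.

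In lower glycolysis, the steps from triose phosphate to lactate, the groups overlapped for 5 of 7 genes. Gapdh and Ldhb were lower in both MycCaP-BMP4 libraries (background 29.7%), and the median log2 fold change was -0.24. With scaling on the pan-macrophage markers Gapdh overlapped and Ldhb was higher. Gapdh had 770.4 and 809 CPM in MycCaP-BMP4 TAMs and 909.7 and 1266 CPM in MycCaP TAMs. Its MycCaP pair was the more spread, and the log2 fold change was -0.46 ± 0.40 (edgeR adjusted p 0.55). Gapdh also has 144 near-identical copies in the genome, at 90% identity over at least 50% of its transcript, 134 of them with an entry in the tables. Those entries held 24.2% of the counts of Gapdh and its copies together. With them added, the level was 977 and 1034 CPM in MycCaP-BMP4 TAMs and 1277 and 1671 CPM in MycCaP TAMs, still lower in both.

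Pkm, pyruvate kinase of muscle and most other tissues, had 3334 and 2416 CPM in MycCaP-BMP4 TAMs and 3397 and 2937 CPM in MycCaP TAMs. Ldha, the lactate dehydrogenase subunit that favours lactate formation, had 1879.9 and 1342 CPM in MycCaP-BMP4 TAMs and 1594 and 1524 CPM in MycCaP TAMs. Pgk1, phosphoglycerate kinase, had 706 and 447 CPM in MycCaP-BMP4 TAMs and 558 and 590.4 CPM in MycCaP TAMs. For Ldha and Pgk1, MycCaP-BMP4 replicate 1 lay above both MycCaP libraries and replicate 2 below both. The log2 fold changes were -0.14 ± 0.50 for Pkm, 0.05 ± 0.43 for Ldha and 0.01 ± 0.39 for Pgk1, intervals that do not show that the groups were alike.

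Eno1, enolase, had 812 and 655 CPM in MycCaP-BMP4 TAMs and 998 and 806 CPM in MycCaP TAMs, and Pgam1, phosphoglycerate mutase, had 125 and 109.6 CPM against 124 and 153 CPM. Both overlapped, through replicate 1 of MycCaP-BMP4. Ldhb, the subunit that favours pyruvate formation, was barely present, at 3.58 and 3.29 CPM in MycCaP-BMP4 TAMs and 4.11 and 4.14 CPM in MycCaP TAMs. Per kb of transcript Ldhb was 0.258% and 0.331% of the 2 lactate dehydrogenase genes in MycCaP-BMP4 TAMs and 0.348% and 0.366% in MycCaP TAMs. Fewer near-identical genomic copies were found for Ldha (6), Eno1 (5), Pkm (5), Aldoa (4), Pgk1 (2) and Ldhb (1), and counts of genes with such copies are uncertain where reads could be shared.

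Proportions among the abundant enzymes are given for Ldha and Pkm over Tpi1 and for Ldha over Aldoa. Ldha had 3.78 and 2.24 counts per Tpi1 count in MycCaP-BMP4 TAMs, against 1.63 and 1.68 in MycCaP TAMs. Pkm had 6.71 and 4.03 counts per Tpi1 count in MycCaP-BMP4 TAMs and 3.47 and 3.24 in MycCaP TAMs, and Ldha 1.76 and 1.23 counts per Aldoa count against 1.01 and 0.976. In each ratio both MycCaP-BMP4 libraries lay above both MycCaP libraries, on values that no scaling can change. Tpi1 and Aldoa were already among the genes lower in both MycCaP-BMP4 libraries on these same counts. The direction of these ratios was thus largely given in advance, and no share over other gene pairs was computed. On the level per kb of transcript, the order from the top was Pkm at 1182 CPM per kb, Ldha at 912, Aldoa at 715, Gapdh at 556, Eno1 at 362, Tpi1 at 341 and Pgk1 at 316 in MycCaP-BMP4 TAMs. In MycCaP TAMs it was Pkm at 1302 CPM per kb, Aldoa at 1042, Ldha at 883, Gapdh at 766, Tpi1 at 587, Eno1 at 445 and Pgk1 at 315. These are group means, and single libraries differed. Eno1 stood above Tpi1 in MycCaP-BMP4 replicate 1, at 400 and 309 CPM per kb. In replicate 2 Eno1 stood below Tpi1, at 323 and 373, as in MycCaP. Gapdh stood above Ldha in MycCaP replicate 2, at 891 and 863, and below it in MycCaP replicate 1.

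**Figure D3:**
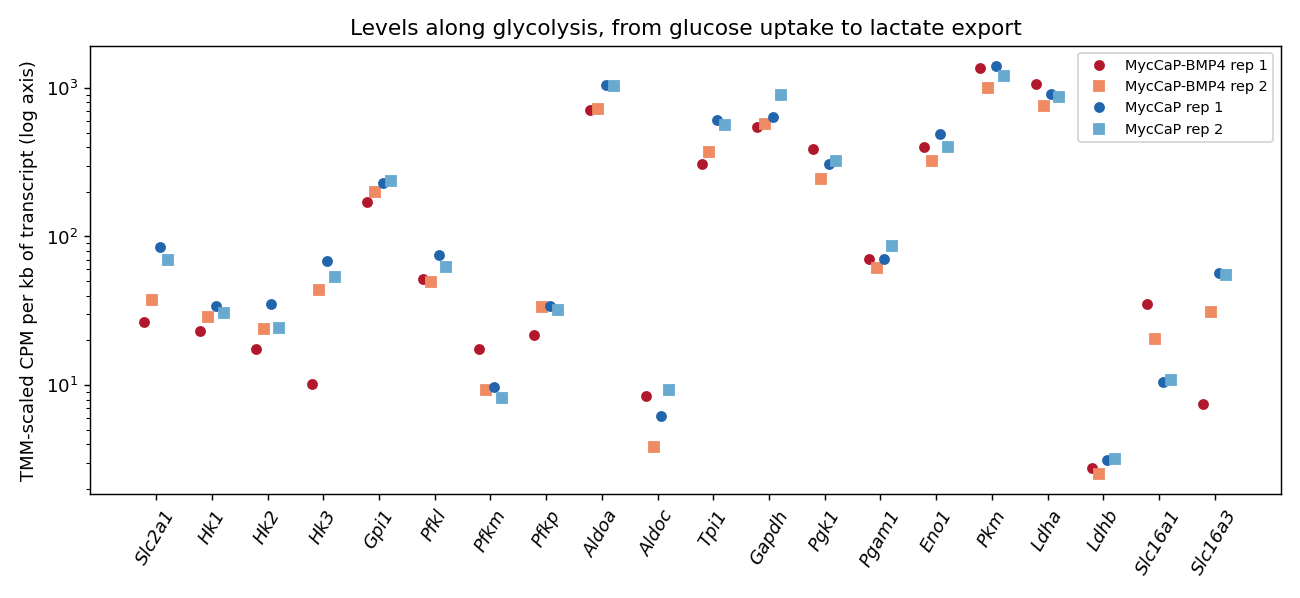
TMM-scaled CPM per kb of transcript (log axis) of transporters and glycolytic enzymes in pathway order, with 1 point per library. From Pgk1 to Ldha the groups overlap, while Slc2a1, Aldoa and Tpi1 lie lower in both MycCaP-BMP4 libraries on this scaling, an order that turned into overlap with scaling on the pan-macrophage markers.

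HIF subunits and oxygen sensing held 3 genes lower in both MycCaP-BMP4 libraries (Egln1, Egln3 and Vhl, background 29.7%). Another, Epas1, was higher in both (background 28.9%) and 2 overlapped. The median log2 fold change of this role was -0.26. With scaling on the pan-macrophage markers only Egln3 was lower in both, Vhl overlapped and the others were higher. Hif1a, the alpha subunit that drives glycolytic genes, had 122 and 261 CPM in MycCaP-BMP4 TAMs and 215 and 220 CPM in MycCaP TAMs. MycCaP-BMP4 replicate 1 lay below both MycCaP libraries and replicate 2 above both, so no direction was shared. Epas1, the other alpha subunit (HIF2A), had 21.8 and 25.04 CPM in MycCaP-BMP4 TAMs and 14.6 and 17.1 CPM in MycCaP TAMs, or 23.4 ± 2.27 and 15.9 ± 1.79 CPM (SD, n = 2 each). It was higher in both, with a log2 fold change of 0.56 ± 0.28 (edgeR adjusted p 0.334). Arnt, the shared partner, had 46.0 and 62.7 CPM in MycCaP-BMP4 TAMs and 64.7 and 59.7 CPM in MycCaP TAMs and overlapped. Epas1 is also a gene of endothelial cells, whose 6 markers summed to 41.7 and 29.2 CPM in MycCaP-BMP4 TAMs and 48.3 and 85.1 CPM in MycCaP TAMs. Of these markers Pecam1 and Vwf were lower in both MycCaP-BMP4 libraries and 4 overlapped (Cdh5, Kdr, Tek and Emcn). Pecam1 had 13.6 and 17.8 CPM in MycCaP-BMP4 TAMs and 28.5 and 43.2 CPM in MycCaP TAMs. The part of such cells in the Epas1 value was not tested.

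Egln3 encodes PHD3, an oxygen sensor that hydroxylates HIF alpha subunits and is itself a HIF target, and lies at chr12:54178981-54203860 on the minus strand. It had 2.93 and 11.2 CPM in MycCaP-BMP4 TAMs, against 40.5 and 34.2 CPM in MycCaP TAMs, or 7.09 ± 5.88 and 37.4 ± 4.43 CPM (SD, n = 2 each). Both MycCaP-BMP4 libraries were far below MycCaP, at 7.85% and 30.1% of its mean. The log2 fold change was -2.40 ± 0.64, the most negative of the 38 (edgeR adjusted p 0.158, DESeq2 adjusted p 0.0021). It was also the member furthest below the pan-macrophage median, at -1.28 on the log2 scale in both MycCaP-BMP4 libraries. Scaled on those markers, Egln3 had 9.28 and 9.42 CPM in MycCaP-BMP4 TAMs and 23.5 and 22.3 CPM in MycCaP TAMs, with a log2 fold change of -1.29 (edgeR adjusted p 0.376). Per count of Csf1r, the receptor that defines macrophages, Egln3 had 0.00693 and 0.00734 counts in MycCaP-BMP4 TAMs and 0.0221 and 0.0166 in MycCaP TAMs. On this ratio the MycCaP-BMP4 libraries were nearly equal and both lay below MycCaP.

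Egln1 encodes PHD2, the main oxygen sensor, and had 89.8 and 96.8 CPM in MycCaP-BMP4 TAMs and 118 and 115 CPM in MycCaP TAMs. Egln3 made up 4.23% and 13.6% of the PHD2 and PHD3 transcripts per kb in MycCaP-BMP4 TAMs, against 31.7% and 28.7% in MycCaP TAMs. Vhl, the subunit that recognises hydroxylated HIF, had 12.5 and 25.04 CPM in MycCaP-BMP4 TAMs and 41.6 and 40.7 CPM in MycCaP TAMs. Vhl was lower in both, with a log2 fold change of -1.13 ± 0.38 (edgeR adjusted p 0.217), and Egln1 was lower in both with -0.32 ± 0.25 (edgeR adjusted p 0.508).

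**Figure D4:**
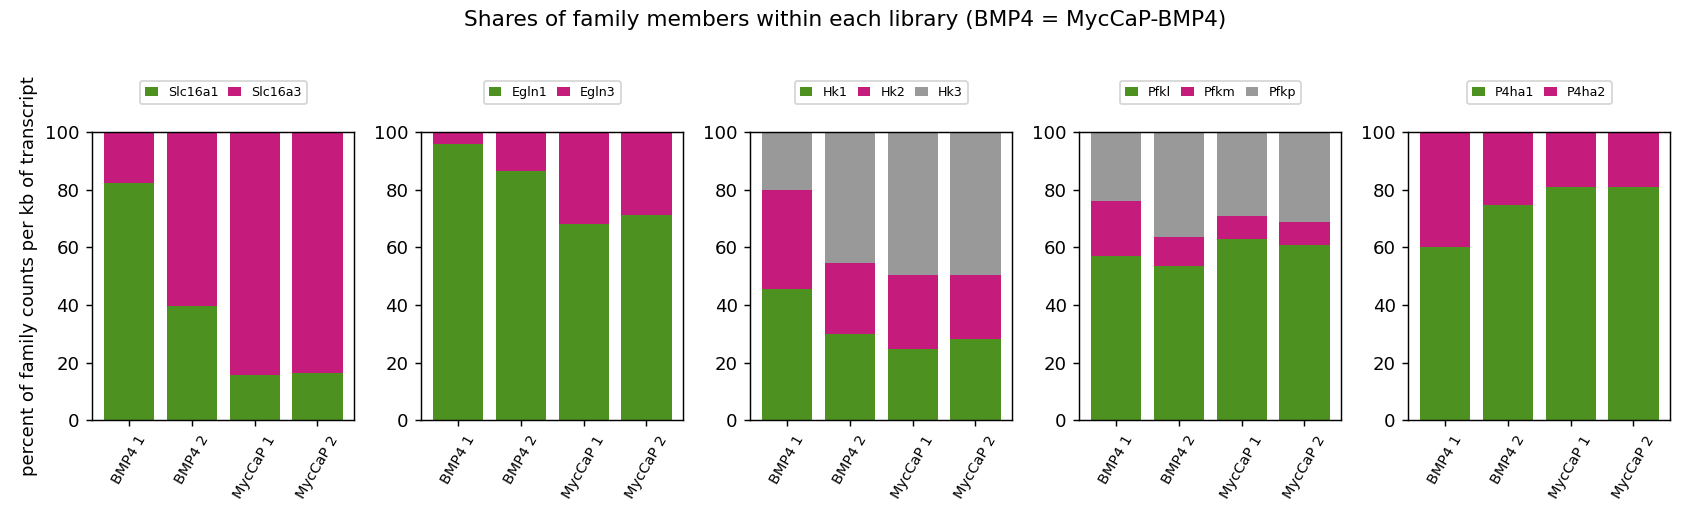
Share of each gene in its family, in percent of counts per kb of transcript, as 1 stacked bar per library. Slc16a1, Hk1, Pfkm and P4ha2 held a larger share, and Egln3, Hk3 and Pfkl a smaller one, in both MycCaP-BMP4 libraries than in either MycCaP library. For each of these genes except Pfkl, replicate 2 of MycCaP-BMP4 lies between replicate 1 and the MycCaP pair. Of families not drawn, the shares of Slc2a1 and Slc2a3, of Pfkfb3 and Pfkfb4, and of Aldoa and Aldoc overlapped between groups. Those of Ldha and Ldhb and of Hif1a and Epas1 did not.

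Among HIF targets outside glycolysis, 6 of 9 genes were lower in both MycCaP-BMP4 libraries (background 29.7%) and 3 overlapped. The median log2 fold change was -0.83. With scaling on the pan-macrophage markers Ndrg1 and Adm stayed lower in both. Ankrd37, Bnip3, P4ha1 and Ddit4 then overlapped and their fold changes turned positive. Ddit4 encodes REDD1, an inhibitor of mTORC1 that hypoxia and other stresses induce, and lies at chr10:59949669-59951834 on the minus strand. It had 34.1 and 33.5 CPM in MycCaP-BMP4 TAMs, against 91.0 and 89.8 CPM in MycCaP TAMs, or 33.8 ± 0.442 and 90.4 ± 0.783 CPM (SD, n = 2 each). The 2 libraries of each group were nearly equal and the groups far apart. The log2 fold change was -1.42 ± 0.23 (edgeR p 0.00107, adjusted p 0.116, DESeq2 adjusted p 0.0019), the smallest p of the 38 and rank 129 of the 14075 tested. Scaled on the pan-macrophage markers, Ddit4 had 108 and 28.1 CPM in MycCaP-BMP4 TAMs and 52.7 and 58.5 CPM in MycCaP TAMs, so that its MycCaP-BMP4 libraries then lay on both sides of MycCaP. Per Csf1r count, Ddit4 had 0.0807 and 0.0219 counts in MycCaP-BMP4 TAMs and 0.0495 and 0.0434 in MycCaP TAMs.

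Bnip3, a receptor for mitophagy, had 131 and 117 CPM in MycCaP-BMP4 TAMs and 223 and 218 CPM in MycCaP TAMs, or 124 ± 9.998 and 220.2 ± 3.74 CPM (SD, n = 2 each). It was lower in both by more than the spread within either pair, with a log2 fold change of -0.83 ± 0.27 (edgeR adjusted p 0.206). Ankrd37, an ankyrin-repeat gene induced by HIF, had 6.52 and 7.91 CPM in MycCaP-BMP4 TAMs and 15.8 and 14.99 CPM in MycCaP TAMs, with a log2 fold change of -1.09 ± 0.33 (edgeR adjusted p 0.187). Of its exon bases 26.4% overlap a gene on the opposite strand, so its counts are uncertain where strand was not used.

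Ndrg1, a stress-responsive gene induced by hypoxia, had 19.7 and 76.6 CPM in MycCaP-BMP4 TAMs and 151 and 129 CPM in MycCaP TAMs. Adm, the precursor of the vasodilator peptide adrenomedullin, had 2.21 and 6.11 CPM in MycCaP-BMP4 TAMs and 12.6 and 13.9 CPM in MycCaP TAMs. Both were lower in both MycCaP-BMP4 libraries and lowest in replicate 1. The log2 fold changes were -1.54 ± 0.63 for Ndrg1 (edgeR adjusted p 0.265) and -1.68 ± 0.56 for Adm (edgeR adjusted p 0.212, DESeq2 adjusted p 0.0425).

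P4ha1 and P4ha2 are the catalytic subunits of collagen prolyl 4-hydroxylase. P4ha1 had 243 and 218 CPM in MycCaP-BMP4 TAMs and 342 and 309.9 CPM in MycCaP TAMs, lower in both. P4ha2 had 88.9 and 40.4 CPM in MycCaP-BMP4 TAMs and 44.7 and 39.7 CPM in MycCaP TAMs, high in replicate 1 of MycCaP-BMP4 only. The share of P4ha2 in the pair, per kb of transcript, was 39.9% and 25.1% in MycCaP-BMP4 TAMs, against 19.2% and 18.8% in MycCaP TAMs. Fibroblasts also express both genes, and 7 fibroblast markers summed to 262 and 287 CPM in MycCaP-BMP4 TAMs and 148 and 390.2 CPM in MycCaP TAMs, which overlapped. Of these markers Dcn and Lum were higher in both MycCaP-BMP4 libraries, Dcn at 29.0 and 9.14 CPM, against 0.700 and 3.25 CPM in MycCaP TAMs, and Pdgfrb was lower in both. The part of such cells in the P4ha2 value was not tested. Ero1l, the oxidase that forms disulfide bonds in the endoplasmic reticulum, had 222 and 143 CPM in MycCaP-BMP4 TAMs and 217 and 227 CPM in MycCaP TAMs. Car9, the surface carbonic anhydrase used as a hypoxia marker in many tumours, had 7.10 and 4.96 CPM in MycCaP-BMP4 TAMs and 5.73 and 8.44 CPM in MycCaP TAMs. Both genes overlapped between groups.

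The 38 genes varied more between the MycCaP-BMP4 libraries than between the MycCaP libraries, with a median absolute replicate gap of 0.47 on the log2 scale in MycCaP-BMP4 and 0.11 in MycCaP. Over all genes tested these gaps were 0.55 and 0.25. The gap within MycCaP-BMP4 exceeded 1 on the log2 scale for 8 of the 38 genes. Relative to the pan-macrophage median, whose log2 difference from MycCaP was -2.34 in replicate 1 and -0.44 in replicate 2, 5 genes lay below it in both MycCaP-BMP4 libraries (Slc16a3, Hk3, Egln3, Ndrg1 and Adm). Above it in both lay 19 genes, and 14 lay above it in replicate 1 only. By library, 33 of the 38 genes lay above it in replicate 1 and 19 in replicate 2. Of all 14075 genes tested, 13244 lay above it in replicate 1 and 11290 in replicate 2, so a place above it is common to most genes. Counts over both libraries jointly were not computed for all genes. The median of the 38 genes was -0.48 in replicate 1 and -0.43 in replicate 2 of MycCaP-BMP4. Over all genes tested it was -0.04 and -0.005, which TMM scaling keeps nearly alike. The medians of single roles differed more, at -0.58 and -0.26 in upper glycolysis and -0.14 and -0.36 in lower glycolysis. The part of the macrophage share in the replicate gaps was not tested.

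**Figure D5:**
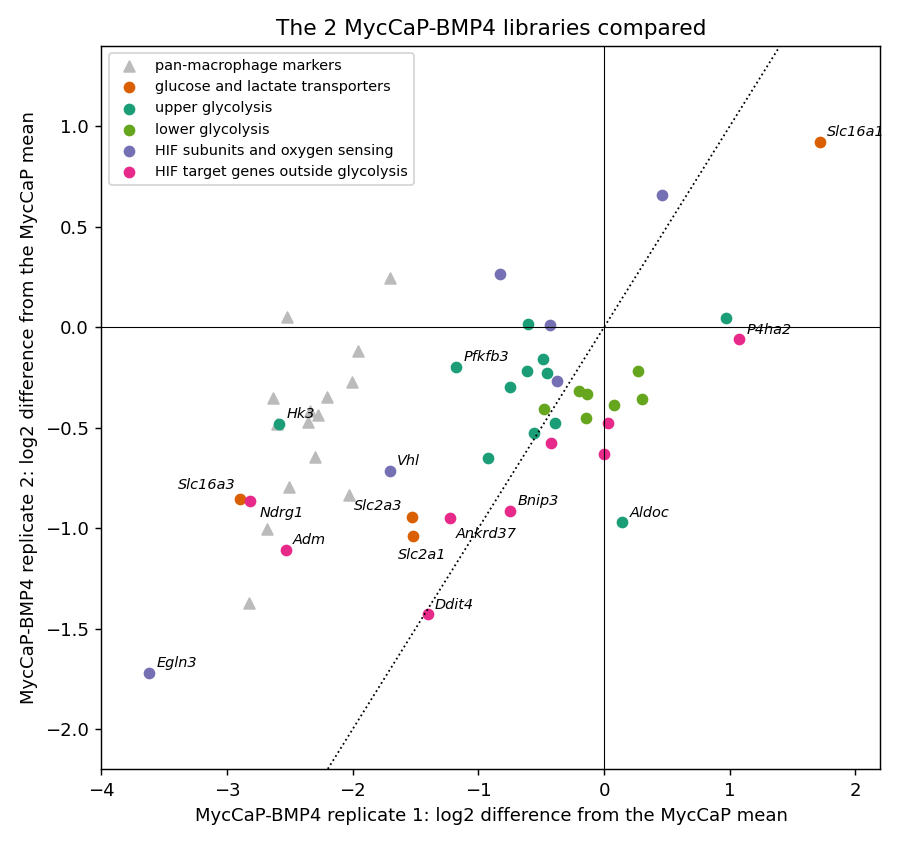
Log2 difference from the MycCaP mean in MycCaP-BMP4 replicate 1 (horizontal) and replicate 2 (vertical) for the 38 genes, coloured by role, and the pan-macrophage markers (grey triangles), with the line of equal values dotted. Ddit4 and Bnip3 lie near the line, while Slc16a3, Hk3, Ndrg1 and Adm lie among or beside the macrophage markers, far lower in replicate 1 than in replicate 2.

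Other genes of the same pathways were taken from 5 lists with 72 genes, of which 60 passed the filter, none was called by edgeR, 10 lay higher (background 28.9%) and 21 lower (background 29.7%) in both libraries of MycCaP-BMP4, and the median log2 fold change was -0.27. The counts of each list that follow are read beside the same shares, and differences between lists were not tested. Of the pentose phosphate genes, which make NADPH and ribose from glucose 6-phosphate, 5 of 7 were lower in both and none was higher. Taldo1, transaldolase, had 112 and 179 CPM in MycCaP-BMP4 TAMs and 344 and 257 CPM in MycCaP TAMs, with a log2 fold change of -1.05 ± 0.37 that turned positive with scaling on the pan-macrophage markers. Of the gluconeogenesis and glycogen genes, 5 of the 8 tested were lower in both and none was higher. Gys1, glycogen synthase, had 32.0 and 33.2 CPM in MycCaP-BMP4 TAMs and 54.6 and 54.0 CPM in MycCaP TAMs, and Pygl, a glycogen phosphorylase, had 14.3 and 59.4 CPM against 88.2 and 77.2 CPM. With scaling on the pan-macrophage markers the log2 fold change of Gys1 was 0.95.

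Of the 14 further glycolysis genes tested, 5 lay higher and 2 lower in both libraries of MycCaP-BMP4. Pfkfb2, another enzyme that makes and removes fructose 2,6-bisphosphate, had 49.6 and 40.7 CPM in MycCaP-BMP4 TAMs and 15.5 and 17.4 CPM in MycCaP TAMs. It was higher in both where Pfkfb3 and Pfkfb4 were lower, with a log2 fold change of 1.46 ± 0.26 (edgeR adjusted p 0.124). The phosphoglucomutase genes lay apart, with Pgm2 at 65.3 and 60.2 CPM in MycCaP-BMP4 TAMs and 29.7 and 37.6 CPM in MycCaP TAMs, and Pgm1 at 58.7 and 65.6 CPM against 123 and 101 CPM. The log2 fold change of Pgm1 was -0.85, and 0.81 with scaling on the pan-macrophage markers.

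Of the further HIF pathway genes 1 of the 8 tested was lower in both and none higher, and of the further HIF targets 5 of 23 were higher and 8 lower, beside the same all-gene shares of 28.9% and 29.7%. Pdk1, the kinase that closes the entry of pyruvate into the mitochondrion, had 34.2 and 31.5 CPM in MycCaP-BMP4 TAMs and 66.3 and 63.4 CPM in MycCaP TAMs. Its log2 fold change was -0.98 ± 0.23 (edgeR adjusted p 0.149), and became 0.75 with scaling on the pan-macrophage markers. Nos2, the inducible nitric oxide synthase of activated macrophages, had 0.724 and 2.24 CPM in MycCaP-BMP4 TAMs and 8.44 and 9.92 CPM in MycCaP TAMs. In the other direction Tfrc, the transferrin receptor that imports iron and a HIF target in several cell types, had 221 and 405 CPM in MycCaP-BMP4 TAMs and 76.5 and 86.8 CPM in MycCaP TAMs, with a log2 fold change of 1.94 ± 0.39 (edgeR adjusted p 0.139).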

How the data were processed

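RNA from sorted macrophages was poly(A)-selected and sequenced in pairs from directional libraries, per the labels' protocols. The deposited values are whole-number read counts per gene. The submitters' processing notes name HTSeq, RSEM, STAR 2.6.0b, Bowtie2 2.2.3 and GRCm38 (mm10). Tool roles, the annotation and the strand setting were not given in the sources used here. Symbols and coordinates came from GENCODE M21 (37607 of 39179 identifiers).

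Groups followed the cell line label. Counts were filtered with filterByExpr, scaled with TMM and tested with edgeR 4.0.16 (quasi-likelihood F test, two-sided, Benjamini-Hochberg over 14075 genes, no covariate, R 4.3.3). The biological coefficient of variation was 0.363. An exact permutation test of 2 against 2 libraries cannot go below p = 0.333 and was not used. Chi-square per degree of freedom was 303 between the MycCaP-BMP4 libraries and 45.8 between the MycCaP libraries, so none repeats another. Reads outside genes made up 6.01% and 6.03% of reads counted in MycCaP-BMP4 and 3.98% and 3.37% in MycCaP, reads in several places 10.6% and 9.35% against 8.01% and 8.49%, and ambiguous reads 2.84% and 2.70% against 2.90% and 2.73%, all left out of library sizes.

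Near-identical copies were found with blastn 2.17.0. Promoter windows were RefSeq's, with Ero1l listed as Ero1a. Alternatives used DESeq2 1.42.0 and limma 3.58.1, other scalings and filters, a replicate block and each library left out. Named genes were all members and up to 3 of each pathway list with the smallest p. Members, lists, tests and alternatives were chosen with earlier results of these data known.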

Additional observations from a re-analysis of the deposited data

How the results depend on the processing

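The number of genes called by edgeR at an adjusted p under 0.05 was 0 (1729 higher and 951 lower at an unadjusted p under 0.05), and 0 with limma-voom (2743 unadjusted), with DESeq2 size factors and with a filter of 1 CPM. It was 65 with library size alone, 1139 with scaling on the pan-macrophage markers, 1109 with no filter on low counts, 1385 with DESeq2's test, and 0 to 5753 with 1 library left out. Of the 38 members it called 1 with macrophage scaling, 3 with no filter (Slc16a1, Egln3 and Ddit4), 5 with DESeq2's test and 0 to 17 with 1 library left out. Members higher in both MycCaP-BMP4 libraries numbered 15 with macrophage scaling (background 69.8%), and members lower in both numbered 4 (background 3.87%). With 1 library left out, members with each remaining MycCaP-BMP4 library above each remaining MycCaP library numbered 2 to 6 (background 37.1% to 43.4%). The member median log2 fold change was -0.21 with library size alone, 1.25 with macrophage scaling and -0.46 to -0.38 with 1 library left out.

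The labels do not say whether same-numbered libraries share more than a number. Their deviations had a correlation of -0.163 across genes, and a shared batch was not tested. The replicate block gave 2 genes called, no member and a median of -0.41. A crossed replicate block, added after seeing the data, called 689 of the 14075 genes tested and 2 of the 38 members (Egln3 and Ddit4). Its member median was -0.41.

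The 25 members without overlap between groups were picked on these counts. Leaving out a library, blocking or another test could therefore hardly turn the sign of their fold change. All 25 kept the sign under each alternative other than macrophage scaling, where 7 kept it. That scaling moved the all-gene median to 1.65 (log2), and library size alone to 0.14. The reversed log2 fold changes under macrophage scaling were 0.29 for Slc2a1, 0.29 for Slc2a3, 1.29 for Hk1, 1.05 for Hk2, 1.30 for Gpi1, 1.29 for Pfkl, 0.79 for Pfkfb3, 1.18 for Pfkfb4, 1.15 for Aldoa, 0.84 for Tpi1, 1.205 for Gapdh, 1.46 for Ldhb, 1.35 for Egln1, 0.26 for Vhl, 0.52 for Ankrd37, 0.92 for Bnip3, 1.25 for P4ha1 and 0.29 for Ddit4. Outside the members they were 0.81 for Pgm1, 0.95 for Gys1, 0.91 for G6pc3, 0.46 for Taldo1, 1.00 for Rpia, 1.15 for Pgd, 0.75 for Pdk1 and 0.12 for Csf1r. The cause of these shifts was not tested. Depth was about equal between libraries, and the member value with fewest counts was Adm in MycCaP-BMP4 replicate 1, with 61.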
